A study of Mus musculus with 12 samples.

Results

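A set of 424 genomic regions had at least 3 times more ESRRB signal in mouse embryonic stem cells with Nanog than in cells without it. They were chosen by their ESRRB read counts in a deposited table of 86201 regions, and make up 0.492% of the 86197 regions outside the mitochondrial genome. Counts were scaled to their column total, the reads of a library counted in all 86201 regions, and are given in CPM. Reads outside the regions were not in this total, so it depends on depth and on the share of reads in regions. CPM therefore compares regions within that total, and a difference in ESRRB signal over all regions together was not measured. A region was kept where the mean of the libraries with Nanog was at least 8 CPM and at least 3 times the mean without Nanog, and where every library with Nanog was above every library without it. The rule used the contrast between the lines, so the levels and ratios of these regions are given as a description, without a test.

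The measurements are chromatin immunoprecipitation and sequencing (ChIP-seq) with an antibody against ESRRB, 3 libraries per line. The line without Nanog is labelled NanogKO:Esrrb, and the line with Nanog is labelled NanogKO:Esrrb:Nanog. All samples carry the same cell line label, N{delta}:cE:iN, the cell type label ESC, and no treatment, and grew in serum with leukaemia inhibitory factor (LIF). How ESRRB and Nanog were expressed, whether a line is 1 clone, which of the fixations named in the protocol a sample had and whether libraries came from separate cultures were not found in the labels, so calls measure the spread between these libraries only. The counts measure ESRRB only, so neither the Nanog labels nor the cell type could be checked from them. Libraries held 2734338 to 5193707 counted reads without Nanog and 6689166 to 8382646 with Nanog, and the columns carry the letters A, B and C in place of replicate numbers.

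ESRRB is an orphan nuclear receptor that binds DNA mainly at an extended half-site of the nuclear receptor type, and it helps to keep mouse embryonic stem cells self-renewing. NANOG is a homeodomain factor of the same network, and Esrrb is among the genes known to be activated by NANOG. Both factors bind many enhancers together with OCT4 and SOX2, and most of these enhancers lie away from gene starts.

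Sequences were at hand only for windows of 300 bases at annotated gene starts (RefSeq, GRCm38.p6, the assembly that mm10 names), and 4 such windows overlapped a gained region, at Fancd2os, Scaper, Ccm2 and the non-coding gene Gm34299. The 250 bases before the start lie wholly inside a gained region at 2 of them. They are shown because all 250 bases can be read as letters within a gained region, 5′ to 3′ in the direction of the gene. Shorter stretches inside gained regions, 47 bases at Scaper and 26 bases at Ccm2, are not shown. The Fancd2os stretch is chr6:113600716-113600965 on the minus strand, and the Gm34299 stretch is chr19:42409727-42409976 on the plus strand, within the span of Crtac1.
Fancd2os: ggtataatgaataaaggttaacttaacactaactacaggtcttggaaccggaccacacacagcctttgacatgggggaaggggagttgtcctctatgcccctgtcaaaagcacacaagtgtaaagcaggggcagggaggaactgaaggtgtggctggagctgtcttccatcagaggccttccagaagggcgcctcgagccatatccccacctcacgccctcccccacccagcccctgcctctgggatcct
Gm34299: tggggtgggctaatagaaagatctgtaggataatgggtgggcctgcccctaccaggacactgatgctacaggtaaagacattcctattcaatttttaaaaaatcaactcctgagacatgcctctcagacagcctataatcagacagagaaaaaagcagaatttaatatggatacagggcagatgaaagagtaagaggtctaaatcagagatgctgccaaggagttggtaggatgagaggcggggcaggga

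No letters are in capitals, because none of the words searched was found in either stretch on either strand. The words were the extended half-site TCAAGGTCA, the half-site AAGGTCA within it, its last letters AGGTCA, the POU octamer ATGCAAAT and the SOX core ACAATGG. Among all 32851 promoter windows, 4.72% held AAGGTCA and 0.423% held TCAAGGTCA. Among the 7484 windows that overlap any ESRRB region, the shares were 7.06% and 0.695%. The only one of the 4 windows with a match was that of Ccm2, with AGGTCA outside the gained region, a word found in 16.3% of all windows. A match or its absence here says only which letters stand in these windows.

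The Fancd2os region at chr6:113600676-113601109 held 5.85, 5.56 and 4.81 CPM without Nanog, in the order A, B, C, and 24.97, 29.3 and 19.9 CPM with Nanog. The Gm34299 region at chr19:42409175-42410381 held 6.95, 8.89 and 13.5 CPM without and 32.3, 36.5 and 30.4 CPM with Nanog. At both, the lowest library with Nanog was more than 2 times the highest library without it. The nearest microRNA gene to any gained region was Mir129-1, whose hairpin lies 3.18 kb from a region at chr6:29025873-29026490, and no other hairpin lay within 5 kb. That region, 33.7 kb from Lep, held 5.12, 8.06 and 7.12 CPM without and 25.3, 32.3 and 28.2 CPM with Nanog, with no overlap. Its mature product is shown with the seed in capitals.
miR-129-5p: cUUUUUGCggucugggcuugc

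Over the 424 regions, the mean without Nanog had a median of 3.77 CPM, with a range of 0.836 to 22.8 CPM. The mean with Nanog had a median of 14.6 CPM, with a range of 8.01 to 84.3 CPM. Their median ratio was 3.73, and 255 regions lay between 3 and 4, 85 between 4 and 5, 66 between 5 and 8, and 18 at 8 or above. For comparison, the 35749 regions of at least 8 CPM with Nanog had a median of 15.0 CPM with Nanog and 14.6 CPM without. The gained regions thus stood near these in level with Nanog and below them without it, as the rule required.

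**Figure D1:**
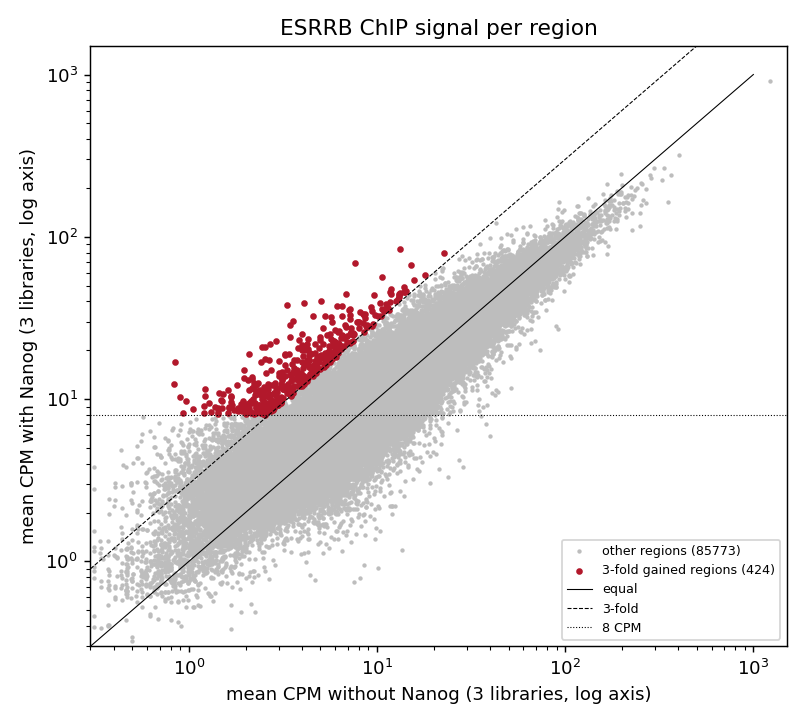
Mean ESRRB signal of each region without Nanog (x axis) and with Nanog (y axis), in CPM on log axes that start at 0.3 CPM, means of 3 libraries. Red points are the 424 gained regions, between 8.01 and 84.3 CPM with Nanog, and the dotted and dashed lines are the thresholds of the rule.

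In the quasi-likelihood fit of edgeR over 84892 regions, 9.42% of regions were called higher with Nanog at a Benjamini-Hochberg adjusted p under 0.05, and all 424 were among them. That call uses the same counts as the rule, and nothing is read from it. Of the regions of at least 8 CPM with Nanog, 25.8% had every library with Nanog above every library without it, and 1.19% met the whole rule. The mirrored rule, at least 8 CPM without Nanog and 3 times lower with it, was met by 129 of 35755 regions (0.361%). Of all 86197 regions, however, 99.2% overlapped the authors' peak list with Nanog and 38.6% the list without it. Regions listed only without Nanog are thus scarce among those counted, so 424 and 129 cannot be compared as gains and losses. Reads behind the values without Nanog were few: the 3 libraries together held a median of 44 reads per gained region, with a range of 9 to 259. Pooled over libraries, the ratio had an exact 95% interval, which covers counting error only, whose lower bound was at least 2 at all 424 regions and at least 3 at 161. Intervals here and below use the counts by which the regions were chosen and make no allowance for that choice, so nothing is read from them. In 363 regions the lowest library with Nanog was at least 2 times the highest without, and in 127 regions at least 3 times. The rule asks for 3-fold means without overlap, so these counts follow largely from it, and nothing is read from them. The same shares over all regions were not counted.

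Ratios were also read in libraries that the rule had not used to choose the regions. The peak lists were called on these libraries, and 99.2% of all regions overlap the list with Nanog. The left-out libraries thus had a part in which regions were counted, so this reading is not independent of them. It is a description, and no support for the gain is read from it. No label ties a letter in the line without Nanog to the same letter in the line with Nanog. The rule was applied to 2 libraries per line, with 1 letter left out of both lines, and the ratio was then taken between the left-out libraries. Without letter A it chose 558 regions, of which 390 were among the 424. Their median ratio was 3.79 in the libraries used and 2.93 in the libraries A, where 555 of 558 were higher with Nanog and 455 were at least 2 times higher. Without letter B it chose 455 regions, with a median of 3.71 in the libraries used and 3.34 in B. Of these, 453 were higher with Nanog in B. Without letter C it chose 446 regions, with medians of 3.65 and 3.57, and 445 were higher with Nanog in C.

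The ratio was therefore lower in the left-out pair for each letter, and most for letter A. The share of regions that still reached 3-fold in the left-out pair was 47.0% for A, 60.0% for B and 65.7% for C. Over all regions of at least 8 CPM with Nanog, the median ratio in single pairs was 1.06, 1.05 and 1.05, and 55.4% to 56.7% were higher with Nanog. With 1 library per line left out there is no test of this difference.

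**Figure D2:**
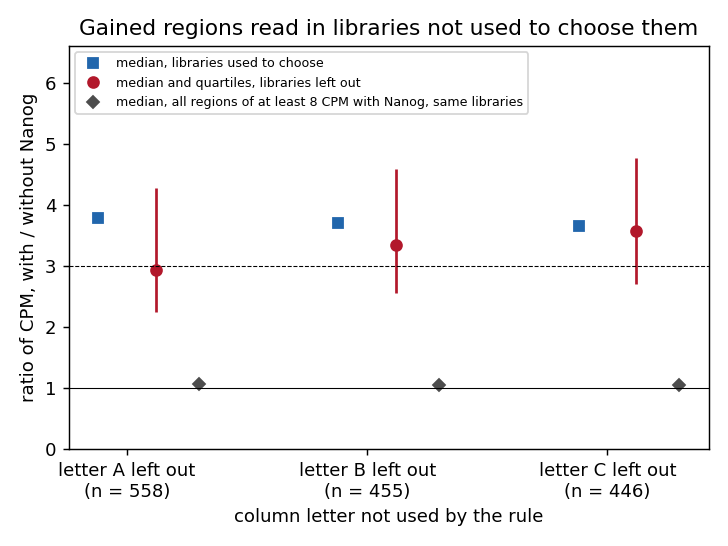
Ratio of CPM with to without Nanog (y axis, linear) for regions chosen without 1 column letter (x axis). Squares are medians in the libraries used to choose, circles and lines are medians and quartiles in the left-out libraries (2.93, 3.34 and 3.57 for A, B and C), and diamonds are medians over all regions of at least 8 CPM with Nanog, near 1.

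The gained region of highest signal with Nanog lay at chr4:99635842-99637114 (mm10), 19.2 kb from Foxd3, a forkhead factor gene of the epiblast. It held 13.5, 15.0 and 11.2 CPM without Nanog and 71.8, 94.6 and 86.5 CPM with Nanog, a ratio of 6.37. The next, at chr17:82272283-82273724, lay in a gene-poor stretch 533.9 kb from Slc8a1, a sodium-calcium exchanger gene, with 19.0, 30.8 and 18.5 CPM without and 74.7, 88.5 and 74.3 CPM with Nanog. Library B without Nanog was the highest of its line at both of these regions, and the lowest library with Nanog was over 2 times the highest without it at each.

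At chr1:132470883-132471903, 3.9 kb from Dstyk, a dual-specificity kinase gene, and inside the non-coding gene 6030442K20Rik, the levels were 6.58, 8.06 and 8.28 CPM without and 67.4, 66.1 and 74.7 CPM with Nanog. This ratio of 9.08 was the largest among the regions of highest signal described here. The region 0.7 kb from Zfp825 at chr13:74476210-74477684 held 11.3, 21.7 and 12.7 CPM without and 62.8, 74.0 and 63.4 CPM with Nanog. Library B without Nanog stood above A and C there, and far below the libraries with Nanog.

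Wasf3 and Mras held regions of high signal inside their spans. Inside Wasf3, a regulator of actin branching, chr5:146402108-146403241 held 13.2, 21.7 and 19.3 CPM without and 51.9, 63.2 and 58.3 CPM with Nanog. Inside Mras, a RAS-related GTPase gene, chr9:99419713-99420946 held 12.8, 11.9 and 7.12 CPM without and 48.7, 64.7 and 55.3 CPM with Nanog. The gene table gives spans only, so exon and intron are not told apart here.

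Lower in signal came Acvr1b, the gene of a type I receptor for activin and NODAL. Inside its span, chr15:101180742-101181639 held 15.0, 13.1 and 13.7 CPM without and 44.3, 53.7 and 48.9 CPM with Nanog. A region 291.5 kb from Arl4a, an ARF-like GTPase gene, held 10.2, 15.8 and 9.63 CPM without and 45.0, 54.6 and 43.8 CPM with Nanog. One at 0.1 kb from Abca14, a transporter gene, held 14.6, 16.9 and 11.4 CPM without and 40.4, 51.1 and 46.7 CPM with Nanog. In 8 of these 9 regions library B was the highest of the line with Nanog, and the exception was the one near Dstyk.

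**Figure D3:**
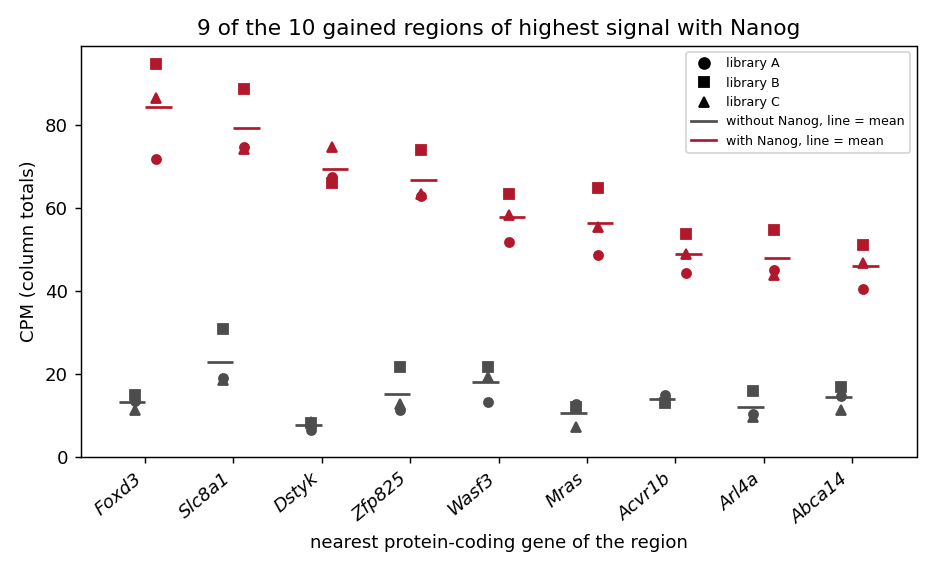
CPM (y axis, from 0) in each library at 9 of the 10 gained regions of highest mean signal with Nanog, 1 per nearest protein-coding gene (x axis). Grey is without and red with Nanog, symbols are libraries A, B and C, and lines are means. All red points lie above all grey points of the same region, by the rule.

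Among regions with at least 3 reads in every library, 8 of the 10 largest ratios were at regions below the gained regions' median of 3.77 CPM without Nanog. The regions near Dstyk, with a mean of 7.64 CPM, and inside Ncam1, with 4.09 CPM, were above it. The largest of these ratios was 14.9, inside Elmo1, a regulator of RAC signalling, at chr13:20123974-20124373. It held 1.10, 0.833 and 0.578 CPM without and 13.0, 12.3 and 12.1 CPM with Nanog. Each library without Nanog held 3 reads there, 9 in all, the fewest of the 424 regions, and the pooled ratio was 15.9 with an exact 95% counting interval of 8.28 to 35.2. Near Poli, a translesion DNA polymerase gene, the ratio was 11.5, from 4.75, 2.50 and 2.7 CPM to 31.7, 37.1 and 45.6 CPM. Inside Ncam1, a neural cell adhesion gene, chr9:49653718-49654346 went from 4.02, 5.56 and 2.7 CPM to 33.2, 39.96 and 44.3 CPM.

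The others by this rule were near or inside Zswim6, Dstyk, Cpne4, Tmem178b, Lrrc28, Qrfprl and Adamts8, with ratios from 8.35 at Adamts8 to 11.5 at Zswim6. Adamts8 encodes a secreted metalloprotease and Cpne4 a calcium-dependent membrane-binding protein. Near Adamts8 the levels were 3.29, 4.17 and 2.89 CPM without and 26.5, 30.3 and 29.6 CPM with Nanog. Inside Cpne4 they were 1.83, 1.39 and 3.08 CPM without and 18.2, 21.6 and 17.0 CPM with Nanog.

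A further 20 regions had a library without Nanog with 0 to 2 reads. They included the largest ratio of all, 20.05, inside Gm11639, where the 6 libraries held 2, 3 and 5 reads without and 100, 140 and 149 reads with Nanog. Its pooled ratio was 19.6, with an exact 95% counting interval of 10.5 to 41.1. Inside Hmga2, a chromatin architectural protein gene, reads were 2, 7 and 5 without and 58, 108 and 101 with Nanog, a pooled ratio of 9.60 with an interval of 5.62 to 17.8. A region 129.9 kb from Shh, the gene of the ligand Sonic hedgehog, held 8, 1 and 6 reads without and 70, 88 and 91 with Nanog, a pooled ratio of 8.35 with an interval of 4.97 to 15.2. The lowest ratio of the 20 was 61.2 kb from Frmd6, with 1, 15 and 16 reads without and 41, 95 and 54 with Nanog, a pooled ratio of 2.99 with an interval of 2.05 to 4.49.

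Each region was given its nearest protein-coding gene, and 327 of 424 had one within 50 kb, at 307 genes. The nearest gene need not be one that the region regulates. Of 24 gene lists, 15 held at least 1 gained region, with 31 gained regions at 30 genes in all. Over all 71484 tested regions within 50 kb of a gene, 327 (0.457%) were gained regions. The share of each list with a gained region is given to be read beside it, without a test. Only regions of at least 8 CPM with Nanog could be gained, 30419 of the 71484. Lists differ in this part, with 148 of 283 at naive pluripotency genes and 137 of 380 at neural transcription factor genes. The shares are over all tested regions, so lists are not ranked by them.

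Naive pluripotency genes held 3 gained regions among 283 regions (1.06%). The strongest lay 10.1 kb from Nr0b1, the orphan receptor gene also called Dax1, at chrX:86180751-86181632, with 4.39, 6.67 and 4.81 CPM without and 30.0, 36.6 and 31.1 CPM with Nanog. Esrrb held the other 2, within its own span. At chr12:86464479-86464974 the levels were 2.2, 5.0 and 4.04 CPM without and 11.5, 17.2 and 11.6 CPM with Nanog. At chr12:86486650-86487192 they were 4.39, 2.50 and 1.93 CPM without and 9.87, 11.5 and 7.66 CPM with Nanog. Among the other 31 tested regions of Esrrb, 7 were called higher, 0 lower and 24 were not called (edgeR, adjusted p under 0.05). Over the other regions of all 307 genes with a gained region, 16.6% were called higher and 6.43% lower.

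General pluripotency genes held 1 gained region among 169 (0.592%), near Zfp281, a zinc finger factor gene. It held 8.41, 10.3 and 11.6 CPM without and 32.4, 31.5 and 33.4 CPM with Nanog, at 11.3 kb. Other regions of Zfp281 went both ways, with 2 called higher and 4 lower of 16. Formative and primed epiblast genes held 1 of 181 (0.552%), the region near Foxd3 described above, and of its 17 other regions 6 were called higher and 0 lower.

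Trophoblast genes held 3 gained regions among 113 (2.65%). Inside Tfap2a, an AP-2 factor gene, the levels were 6.58, 10.8 and 8.09 CPM without and 23.6, 29.6 and 24.8 CPM with Nanog. At 1.0 kb from Bmp4, a secreted ligand gene, they were 6.22, 7.22 and 7.32 CPM without and 20.6, 26.01 and 20.7 CPM with Nanog. At 19983 bp from Elf5, an ETS factor gene, they were 3.29, 6.94 and 4.43 CPM without and 13.2, 22.2 and 15.6 CPM with Nanog. Library B was the highest with Nanog at all 3, as it was at 255 of the 424 gained regions.

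Of 4 signalling lists, 2 held gained regions. NODAL, BMP and TGF-beta genes held 3 among 242 (1.24%), at Acvr1b and Bmp4 as above and inside Smad3, a signal transducer of activin and NODAL, with 2.56, 2.78 and 2.12 CPM without and 6.13, 9.54 and 8.55 CPM with Nanog. LIF and STAT3 genes held 2 among 174 (1.15%). Inside Il6ra, an interleukin receptor gene, the levels were 7.31, 3.89 and 4.04 CPM without and 16.3, 22.9 and 15.95 CPM with Nanog, and near Jak1, a kinase of LIF signalling, 5.85, 3.61 and 3.66 CPM without and 14.5, 17.5 and 15.2 CPM with Nanog. FGF and ERK genes held 0 among 304 regions, and WNT and TCF genes 0 among 279.

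Neural adhesion and axon guidance genes held 7 gained regions among 729 (0.960%), each inside a different gene. After Ncam1, the strongest were inside Tenm3, a teneurin of synaptic partner choice, and Robo1, a receptor for SLIT ligands. Tenm3 held 4.02, 7.22 and 7.51 CPM without and 22.6, 28.5 and 28.0 CPM with Nanog. Robo1 held 5.12, 6.11 and 4.62 CPM without and 16.4, 20.8 and 20.7 CPM with Nanog. Lrrtm4, Slit3, Tenm4 and Opcml had ratios from 3.71 at Tenm4 to 4.11 at Slit3.

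Cadherins and protocadherins held 3 among 256 regions (1.17%). Inside Cdh23, a cadherin gene of hair cells, the levels were 6.95, 4.72 and 5.39 CPM without and 29.7, 33.3 and 33.4 CPM with Nanog. Pcdh15, which encodes the partner of CDH23 in hair-cell tip links, held 6.95, 6.39 and 8.09 CPM without and 26.8, 32.0 and 35.2 CPM with Nanog. Neural transcription factor genes held 3 among 380 (0.789%), at Pax3, Npas3 and Zeb2, with ratios of 5.01, 3.68 and 3.16.

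Nuclear receptor genes held 4 gained regions among 276 (1.45%), 3 of them at Nr0b1 and Esrrb as above. The fourth lay 29.3 kb from Rxra, which encodes a retinoid X receptor, with 3.66, 3.06 and 4.43 CPM without and 11.4, 16.6 and 15.6 CPM with Nanog. Nuclear receptor coregulator genes held 0 among 146.

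A single gained region was held by each of 5 further lists. These were Polycomb and histone enzyme genes with 1 of 351 (0.285%), at Kmt2e, and DNA methylation genes with 1 of 102 (0.980%), at Uhrf2. Homeobox and forkhead genes held 1 of 466 (0.215%), at Nkx6-2, chromatin architecture genes 1 of 235 (0.426%), at Hmga2, and cell cycle genes 1 of 199 (0.503%), at Myc. Their ratios ran from 3.03 at Nkx6-2 to 9.47 at Hmga2. The homeobox and forkhead list does not hold Foxd3 or Pax3, which are counted in other lists above, so its share is not that of all such genes. The region 6.2 kb from Myc, a growth-promoting factor gene, held 1.46, 4.17 and 2.31 CPM without and 8.82, 12.5 and 13.4 CPM with Nanog, and a second gained region lay 57.2 kb from Myc.

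No gained region (0) lay at primitive endoderm genes among 189 regions, nor at mesendoderm genes among 50, genes of mitochondrial energy and glycolysis among 282, housekeeping genes among 71, fibroblast genes among 44 or 2-cell-like genes among 12. At the overall share of 0.457%, lists of this size hold few or none, so an empty list is not a result. By edgeR, 13 of the 189 primitive endoderm regions were called higher and 41 lower, with 9.42% of all regions called higher and 9.78% lower.

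Another gained region lay within 50 kb of 30 of 424 gained regions (7.08%), while a gained region lay within 50 kb of 2.9% of all regions and 3.05% of those of at least 8 CPM with Nanog. Within 10 kb the shares were 4.25%, 0.73% and 0.755%, and within 200 kb 14.4%, 9.51% and 9.87%. These are positions with no replicates and were not tested. Gained regions under 1 kb apart can share sequenced fragments, and each is counted here as its own region. The 30 fell into 14 groups, of which 2 held 3 regions and the rest 2. One group of 3 lay inside Mras. Beside the strong region above, a second held 1.83, 3.61 and 1.54 CPM without and 8.97, 18.5 and 10.3 CPM with Nanog. The last held 0.731, 1.67 and 0.770 CPM without and 9.12, 9.54 and 7.4 CPM with Nanog. The second and the last lay under 1 kb apart. Of the 15 other regions of Mras, 8 were called higher and 0 lower, beside 16.6% and 6.43% over the other regions of all genes with a gained region.

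The other group of 3 lay inside Thada. Its strongest member at chr17:84351143-84351784 held 15.0, 13.1 and 11.4 CPM without and 41.0, 40.1 and 45.9 CPM with Nanog. A neighbour at chr17:84354863-84355541 held 4.75, 6.67 and 6.93 CPM without and 31.2, 39.96 and 41.4 CPM with Nanog. The means of these regions were 13.1 and 6.12 CPM without Nanog and 42.3 and 37.5 CPM with it. The last member of the group lay under 1 kb from this neighbour, so they can share sequenced fragments. A pair near Ccnd2, a D-type cyclin gene, lay 97.7 and 100.3 kb away, and its stronger region held 8.78, 4.72 and 6.93 CPM without and 37.1, 54.5 and 42.2 CPM with Nanog. Inside Glis3, a zinc finger factor gene, lay 2 gained regions, with 6.22, 9.17 and 10.6 CPM without and 28.9, 34.6 and 36.9 CPM with Nanog at the one and 7.68, 8.06 and 7.70 CPM without and 28.9, 34.2 and 26.5 CPM with Nanog at the other.

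Position was not used by the rule. A gene's span held 52.8% of the gained regions, against 53.4% of all 86197 regions outside the mitochondrial genome and 53.4% of the 35749 regions of at least 8 CPM with Nanog. Within 1 kb of an annotated gene end lay the centres of 12 gained regions (2.83%), against 13.4% and 14.9%. A gene within 50 kb was found for 77.1%, against 84.3% and 85.1%. Another ESRRB region stood within 10 kb of 67.0%, against 73.0% and 76.9%. The median width was 506 bp, against 346 bp and 561 bp. These are shares of positions with no replicates, and no test was made of them.

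**Figure D4:**
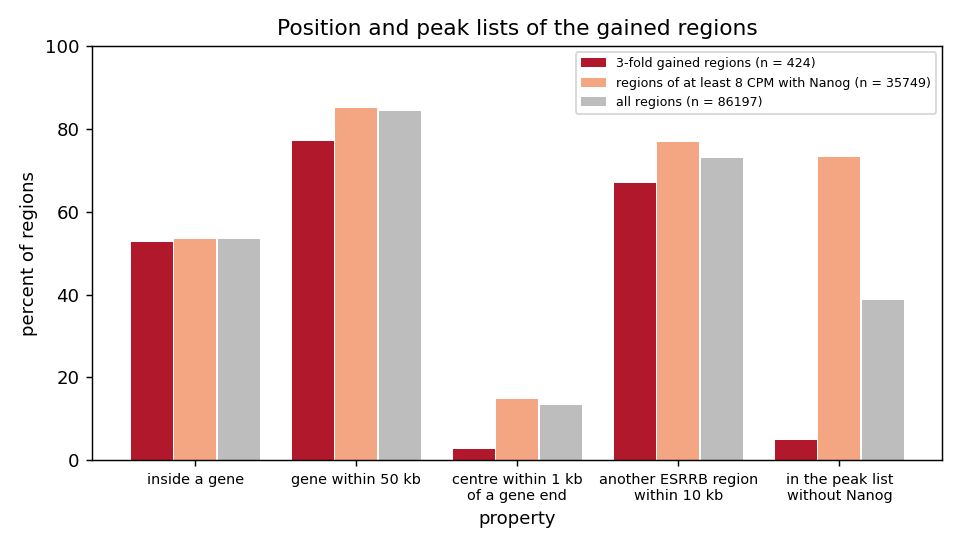
Percent of regions (y axis, from 0) with each property (x axis) among the 424 gained regions (red), the regions of at least 8 CPM with Nanog (orange) and all regions (grey), the latter 2 including the gained ones. Gene ends are within 1 kb of 2.83% of gained regions, against 14.9% and 13.4%, while the share inside genes is near 53% in each set.

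The 12 regions at gene ends were at Abca14, Pvalb, Mtmr12, Fancd2os, Arih1, Jakmip3, Gchfr, Nkx6-2, Gss, Tril, Sulf1 and Stxbp3. The region at Pvalb, the gene of a calcium-binding protein, held 14.3, 13.9 and 10.4 CPM without and 44.7, 44.5 and 34.5 CPM with Nanog. At Mtmr12, a myotubularin-related gene, the levels were 10.6, 7.22 and 6.55 CPM without and 31.7, 39.7 and 32.5 CPM with Nanog. At Gss, which encodes glutathione synthetase, they were 1.83, 3.06 and 3.66 CPM without and 5.83, 16.2 and 10.5 CPM with Nanog. The libraries with Nanog differed most at Gss of all 424, with a coefficient of variation of 48.0%.

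Far from genes, 97 gained regions had no protein-coding gene within 50 kb and 9 had none within 500 kb. The farthest were a pair at 1971.9 and 1974.3 kb from Celf4. The stronger of them held 4.02, 5.83 and 5.39 CPM without and 14.1, 20.4 and 19.0 CPM with Nanog. A region 914.2 kb from Pcdh20, a protocadherin gene, held 0.731, 3.61 and 5.58 CPM without and 9.87, 12.05 and 10.8 CPM with Nanog.

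All 424 regions overlapped the authors' deposited peak list with Nanog. So did 99.2% of all 86197 regions and 35746 of the 35749 regions of at least 8 CPM with Nanog. Of the 424, 21 (4.95%) also overlapped the list without Nanog. The lists were called on these libraries, so this is not independent of the rule. Of all regions of at least 8 CPM with Nanog, 73.2% overlapped the list without Nanog. The libraries without Nanog held fewer counted reads, and the part of depth in that list was not tested. A region outside the list can still hold ESRRB signal. Among the 21 were Wasf3, Abca14 and Acvr1b as above, and a region 2.6 kb from Sumo3, which encodes a small ubiquitin-like modifier, with 14.3, 11.9 and 15.98 CPM without and 50.4, 41.2 and 44.7 CPM with Nanog. With a reciprocal overlap of 50%, 1 region (0.236%), 34.7 kb from Eif3e, was shared.

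Regions beside the gained ones, which the rule did not choose, were higher with Nanog more often than regions far away. Among 330 tested regions with a gap under 5 kb to a gained region, 105 (31.8%) were called higher and 8 (2.42%) lower by edgeR, against 8.97% and 9.83% of all regions that are not gained ones. Their median log2 fold change was 0.45. It was 0.66 at gaps under 1 kb, 0.43 from 1 to 2 kb, 0.25 from 2 to 5 kb, 0.19 from 5 to 20 kb, 0.06 from 20 to 50 kb, 0.04 from 50 to 200 kb and -0.03 beyond. The share called higher fell over the same steps from 44.2% to 31.8%, 25.8%, 16.8%, 11.6%, 10.5% and 8.63%.

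Neighbouring regions share libraries, and those under 1 kb apart can share sequenced fragments, whose part in the result was not tested. Among neighbours of at least 8 CPM with Nanog, 46.7% of 137 were called higher under 5 kb and 13.5% beyond 200 kb. The count of 105 fell to 68 without library B with Nanog and to 66 with DESeq2, when 5.88% and 5.55% of all tested regions were called higher. It was 56 with a mean count of at least 50, a filter that tests 118 of the 330 neighbours, so that 47.5% of these were called higher against 15.1% of all regions tested. By gene, at the 307 genes with a gained region within 50 kb, 479 of their 2894 other regions (16.6%) were called higher and 186 (6.43%) lower, against 9.08% and 9.36% of all regions within 50 kb of a gene. At 105 of these genes at least 1 other region was called lower.

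**Figure D5:**
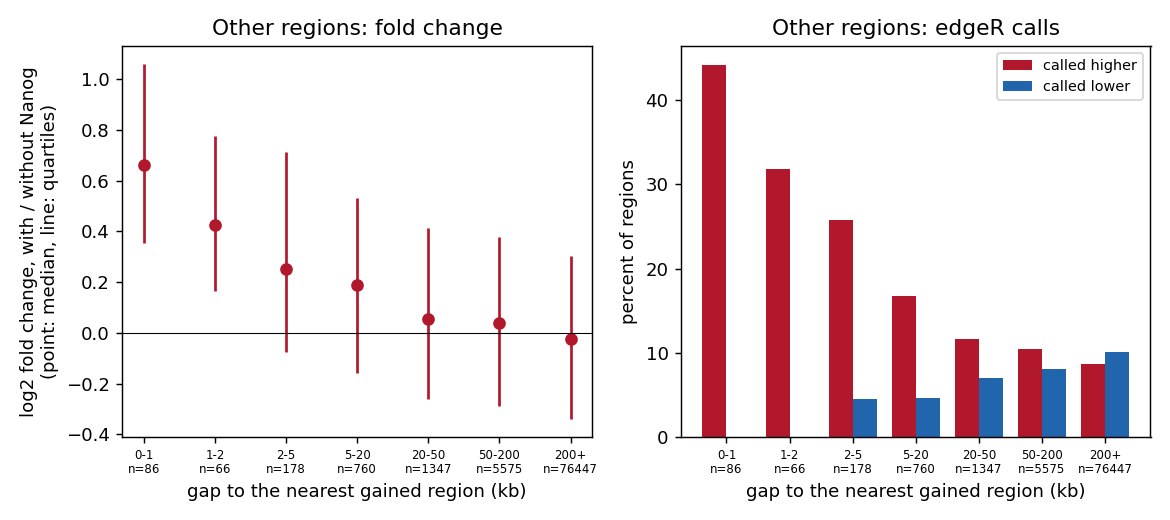
Regions that are not gained ones, by the gap to the nearest gained region in kb (x axes). Left, log2 fold change with against without Nanog (points are medians, lines are quartiles), from 0.66 under 1 kb to -0.03 beyond 200 kb. Right, percent called higher (red) and lower (blue) by edgeR, with 44.2% higher under 1 kb and 8.63% beyond 200 kb.

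Close to the thresholds, the values on either side were nearly equal. Just inside the 3-fold limit were regions inside Dmd and Jazf1 and one 337.2 kb from Grin2a, with means of 4.11 and 12.3, 6.03 and 18.1, and 3.47 and 10.4 CPM without and with Nanog. Just outside were regions 95591 bp from Spock1, inside Pitpnm2 and 237878 bp from Gadl1, with ratios of 2.998, 2.997 and 2.997. Just inside the floor of 8 CPM were regions 43.4 kb from Cald1, 71.9 kb from Chrd and inside Smad3, and just outside were regions inside Grb10, Tfap2a and Sgip1, at 7.9965, 7.99 and 7.98 CPM with Nanog. A total of 608 regions met the rule in all but the floor.

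Spread between libraries was wider without Nanog. Over the gained regions the coefficient of variation had a median of 27.8% without and 13.4% with Nanog, where all regions of at least 8 CPM with Nanog had 16.3% and 10.5%. Reads were also fewer, with library medians of 10, 14 and 19 per gained region without Nanog and 87.5, 134.5 and 119 with it, and the part of counting error in this spread was not tested. The tightest set with Nanog was 46.3 kb from Ankrd55, at 11.2, 11.2 and 11.4 CPM, with 4.39, 2.50 and 3.47 CPM without Nanog. Inside Prtg, a neural protein of the immunoglobulin family, the levels with Nanog were 9.12, 8.83 and 8.93 CPM, against 1.10, 2.22 and 3.47 CPM without. Wide sets beside Gss were inside Ctdp1, with 8.07, 19.7 and 11.6 CPM with Nanog, and inside Mecom, a zinc finger oncogene, with 6.28, 13.1 and 7.66 CPM. Library B was the highest of the 3 at each of these wide sets, as it was at 255 of the 424 gained regions.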

How the data were processed

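ESRRB ChIP-seq counts of 6 libraries, 3 per line, were analysed. The deposited table gives raw read counts per region, not normalised. Tools listed in the submitters' processing notes, with no settings, are MACS2, deepTools, Bowtie2, bedtools 2.26.0, SAMtools 1.4.1 and bcl2fastq 2.19.1, with the build mm10, and what counted the reads was not found in them. Columns were matched to a line and not to a sample. The other deposited files are peak lists of 1 list per line, without scores. Input libraries were not analysed here.

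CPM was taken by column totals. For calls, regions passing filterByExpr (84892, with 1309 removed) were TMM-scaled and tested in edgeR (4.0.16, under R 4.3.3) with its quasi-likelihood functions glmQLFit and glmQLFTest, at a Benjamini-Hochberg adjusted p of 0.05. DESeq2 1.42.0, other scalings, filters, thresholds and left-out libraries were alternatives. Neighbour bins under 5 kb, calls over all gained regions, the neighbour count under other fits and the word AGGTCA were added after seeing the data.

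Genes are from RefSeq, GRCm38.p6, by distance to the span. Coordinates are 1-based. Region sequences other than at promoters were not analysed here. Regions and lists were chosen with earlier results of these data known. Named regions are those of highest signal, largest ratio, fewest reads, listed genes, groups, gene ends, shared peaks, extreme spread and nearest the thresholds. Regions at Ccnd2, Glis3, Celf4, Lep, Crtac1, Eif3e, Ext1 and the distal one at Myc were named after their values were seen. Of the 10 regions of highest signal, 1 is not reported here.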

Additional observations from a re-analysis of the deposited data

How the results depend on the processing

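The number of gained regions depends on the limits of the rule: it was 803 with a floor of 4 CPM and 189 with 16 CPM, 1845 with a 2-fold and 169 with a 4-fold limit. Other scalings gave 401 (TMM) and 395 (DESeq2 size factors), all among the 424. Thinning to the smallest column total gave 495, of which 369 were shared, and medians gave 472, of which 367 were shared. Leaving out the no-overlap clause gave 424. Leaving out 1 library gave 371 to 561, with 348 to 422 shared. The median ratio, 3.73 in all libraries, was 2.93 and 3.34 for regions chosen without letter A or B and read there, a move larger than the SD of 0.223 between the letters.

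Over all regions, 7997 were called higher and 8306 lower. A mean count of at least 50, which tests 33017 regions, gave 4978 and 5503, and the DESeq2 test gave 4785 and 5461. With 1 library left out, higher calls ranged from 4988 to 9288 and lower calls from 4780 to 8971, lowest without library B with Nanog. Lower calls were 5045 without library A with Nanog. Column totals gave 8998 and 7170. The rule chose the 424 gained regions on these same counts, so their calls in other fits are a description and nothing is read from them. All 424 gained regions kept a positive log2 fold change in each fit that tested them. They were called in each except the DESeq2 test (422) and the count filter, which tests 285 of them. Neighbours called higher within 5 kb numbered 56 with that filter (of 118 tested), 66 with the DESeq2 test and 68 to 116 with 1 library left out. Apart from the fewer regions or libraries entered, the cause was not tested.

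Titles number the replicates, while columns carry letters, which no label ties to the numbers. The main fit, which gave the calls above, had no term for the letter. As a replicate block, the letter gave 10095 higher and 10825 lower calls. With this block, 115 of the 330 neighbours within 5 kb (34.8%) were called higher, against 11.9% of all tested regions. The call of all 424 was kept, on the same counts as the rule. Deviations from the line's mean correlated across lines at 0.079 for A, 0.217 for B and 0.123 for C, and at -0.154 to 0.044 between unlike letters. Chi-square over its degrees of freedom was 1.33 to 2.53 for pairs within a line, so none was counted as a duplicate.

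A gene lay within 10 kb of 63.9% and within 100 kb of 85.6% of gained regions, against 77.1% within 50 kb. The share in the peak list without Nanog, 4.95%, was 0.236% with a reciprocal 50% overlap and 4.25% with centres within 200 bp. Another gained region lay within 10 kb of 4.25% and within 200 kb of 14.4%, against 7.08% within 50 kb, where the shares of all regions near a gained one were 0.73%, 9.51% and 2.9%. Depth limits the ratios of regions with few reads without Nanog, where the shallowest library held 2734338 reads in regions.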

Other observations

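Gained regions lay on every autosome and on the X chromosome. As a share of the regions of at least 8 CPM with Nanog, they ranged from 0.795% on chromosome 4 (21 of 2643) and 0.803% on chromosome 2 (23 of 2865) to 1.76% on chromosome 15 (26 of 1474) and 1.56% on chromosome 9 (30 of 1917), and made up 1.48% on the X chromosome (9 of 609). Chromosome 5 held the most, 35 of 2465. Chromosome 15 held the gained regions at Acvr1b, Pvalb, Mtmr12, Ext1, Myc, Cdh12 and Myo10. Of these, the stronger region inside Ext1, which encodes a glycosyltransferase of heparan sulphate, held 11.3, 7.50 and 9.05 CPM without and 35.1, 38.8 and 37.3 CPM with Nanog. These shares have no replicates and were not tested.

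Libraries of the line with Nanog did not take turns evenly: library B was the highest of the 3 at 255 gained regions, C at 143 and A at 26, and A was the lowest at 292. Without Nanog, B was the highest at 179, A at 125 and C at 120. The same shares over all regions were not counted. Median ratios of the 424 regions within letters were 3.68 for A, 4.07 for B and 4.06 for C.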
